A study of Mus musculus with 2 samples.

Results

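The methionine cycle and S-adenosylmethionine (SAM) homeostasis genes are 10 genes chosen by name from the 54532 Ensembl gene rows of the deposited count table. They are Mat2a and Mat2b for SAM synthesis, Mettl16 as the RNA-binding SAM sensor, Ahcy, Ahcyl1 and Ahcyl2 of the S-adenosylhomocysteine hydrolase family, Mtr and Mtrr for remethylation, Slc25a26 for SAM import into mitochondria and Adk for adenosine removal. All 10 were found under 1 identifier each, and all 10 averaged 10 counts or more over the libraries, as did 13041 genes of the table, called measured here. The measured cells were primary CD8+ T cells from the spleens of wild-type (WT) Mus musculus. The labels call these animals ND mice without spelling out the letters. The methionine-free group is 1 bulk RNA-seq library of cells kept for 8 h in RPMI 1640 that lacked methionine, and the complete group is 1 library of cells kept as long in RPMI 1640 medium. No other treatment, genetic change, age or sex is given in the labels, and how many animals were pooled or shared is not given either.

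In the methionine cycle, methionine adenosyltransferase joins methionine to the adenosyl part of ATP and makes SAM, the methyl donor of most methyltransferases. Each methylation leaves S-adenosylhomocysteine, which inhibits those enzymes until it is split into homocysteine and adenosine, and homocysteine is remethylated to methionine with a methyl group from folate and with cobalamin (vitamin B12) as cofactor. Dividing T cells take up much methionine from outside. In human cells, METTL16 binds hairpins in the 3′ untranslated region (UTR) of MAT2A RNA and methylates an adenosine in them when SAM is plentiful. When SAM is scarce it stays bound and favours splicing of a retained intron, so that more mature MAT2A mRNA is made.

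The letters recognised by METTL16 were therefore searched in the mouse transcripts, on the sense strand only, as TACAGAGAA and as TACAGAAAA, which has 1 letter changed. The Mat2a-201 transcript of GENCODE M21 (GRCm38) is 2804 bases long, and its 3′ UTR of 1494 bases held 6 matches, 5 of the first form and 1 of the second. Each match is shown with 30 bases of the mouse transcript, 5′ to 3′ in DNA letters, with the motif in capitals. The stretches were not compared with the hairpins of human MAT2A RNA, so whether they correspond to those was not tested.
site 1: tggcgtaggtTACAGAGAAgccttcaagct
site 2: ccttgtgataTACAGAGAAgtcacagggca
site 3: ctggtgtagcTACAGAGAAaccagcttcct
site 4: atggcgtaagTACAGAGAAgccatcacctc
site 5: caaggtgtccTACAGAAAAaccttgggtta
site 6: gctggtgtggTACAGAGAAgccagcttgtt

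The 6 Mat2a stretches lie on the minus strand of chromosome 6, at chr6:72434234-72434263, chr6:72433450-72433479, chr6:72433271-72433300, chr6:72433156-72433185, chr6:72433045-72433074 and chr6:72432937-72432966. All are exonic. Their motifs start 40, 824, 1003, 1118, 1229 and 1337 bases after the stop codon. RNAfold predicted structures with 10 to 18 paired bases in the 6 windows, with 6 to 9 of the 9 motif letters unpaired and folding energies between -10.6 and -4.9 kcal/mol. No other windows were folded, so whether these values differ from those of other stretches was not tested. Of 21045 genes with an annotated 3′ UTR, each taken by its longest one, 2.39% held TACAGAGAA and 4.20% held either form. Among 2768 genes whose 3′ UTR was within 20% of the 2178 bases of the longest Mat2a 3′ UTR, 3.03% held TACAGAGAA and 6.21% held either form. Mat2a was the gene with the most matches, 6 against at most 4 in any other gene, and none of the other 9 members held a match in its longest 3′ UTR. The letters were chosen because METTL16 binds MAT2A RNA in human cells, so the first place of Mat2a is no independent finding. A match is a description of letters and no measurement of binding.

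**Figure D1:**
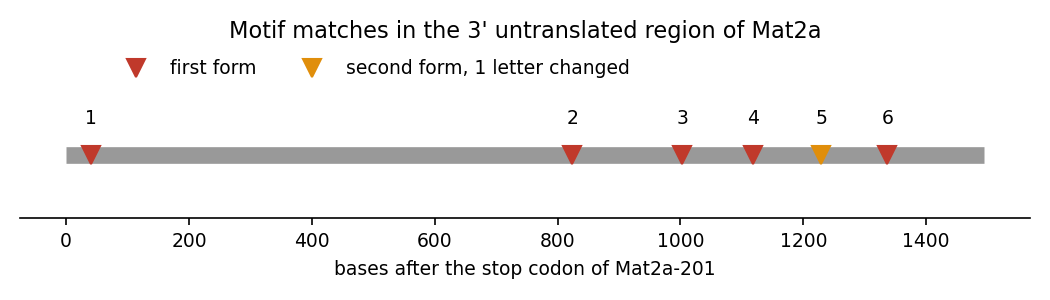
The grey bar is the 3′ UTR of the Mat2a-201 transcript in bases after the stop codon, and the triangles are the starts of the 6 motif matches, red for the first form and orange for the second, which has 1 letter changed. Site 1 lies 40 bases after the stop codon, while sites 2 to 6 lie between 824 and 1337 bases after it.

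Sequencing gave 19647681 counts in 18374 detected genes for the methionine-free library and 14646527 counts in 19110 detected genes for the complete library. With 1 library per medium no difference has a replicate check, no p-value is given, and only the size of a difference decides which genes are called. Levels of one gene are in CPM, its count relative to the library total after TMM scaling, a fold is the ratio of scaled counts, and the 95% interval in brackets covers counting error only. The 7 markers of CD8+ T cells summed to 1802.5 CPM in the methionine-free library and 2035.7 CPM in the complete library, and Cd4 had 11 and 9 counts. The 5 B cell markers summed to 6.89 and 11.3 CPM, the 8 myeloid markers to 9.14 and 4.15 CPM, the 3 natural killer markers to 0.0510 and 0.477 CPM and the 4 erythroid markers to 1.84 and 1.43 CPM, methionine-free first in each pair. Among the myeloid markers Flt3 alone had 149 counts in the methionine-free library and 33 in the complete library, while the other 7 summed to 30 and 28 counts. The erythroid markers Hba-a1 and Hbb-bs went opposite ways, with 26 and 9 counts in the methionine-free library and 2 and 19 in the complete library. The markers S100a8 and Klrb1c were at 0 counts in both libraries. Other features moved with the media over the whole table. All 10 listed genes of dividing cells, Mki67 and Aurkb among them, were lower by more than 2-fold, with a sum of 96.1 CPM in the methionine-free library and 1878.5 CPM in the complete library. RNAs that mostly lack a poly(A) tail held 125 counts in the methionine-free library and 13 in the complete library, 115 and 11 of them from Rn7sk. The labels name a whole-RNA kit and an mRNA kit without saying which made which library, so kit and medium cannot be told apart. In bulk RNA, fewer cells of a type and less RNA per cell cannot be told apart.

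Without methionine, Mat2a was far above the other members, Mtrr and Slc25a26 were higher by less, and Ahcy was lower. Of the 10 members, 3 reached 1.5-fold in the higher direction, against 15.7% of the 13041 genes. In the lower direction 1 member reached it, against 18.0% of all genes. The other 6 lay between these limits. At 2-fold, Mat2a was higher and no member was lower, against 5.80% and 9.29% of all genes. The median log2 difference of the members was 0.05 and that of all 13041 genes 0.04, whose quartiles were -0.39 and 0.40. As a group, then, the members lay where the whole table lay, and Mat2a is the member that stood apart.

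**Figure D2:**
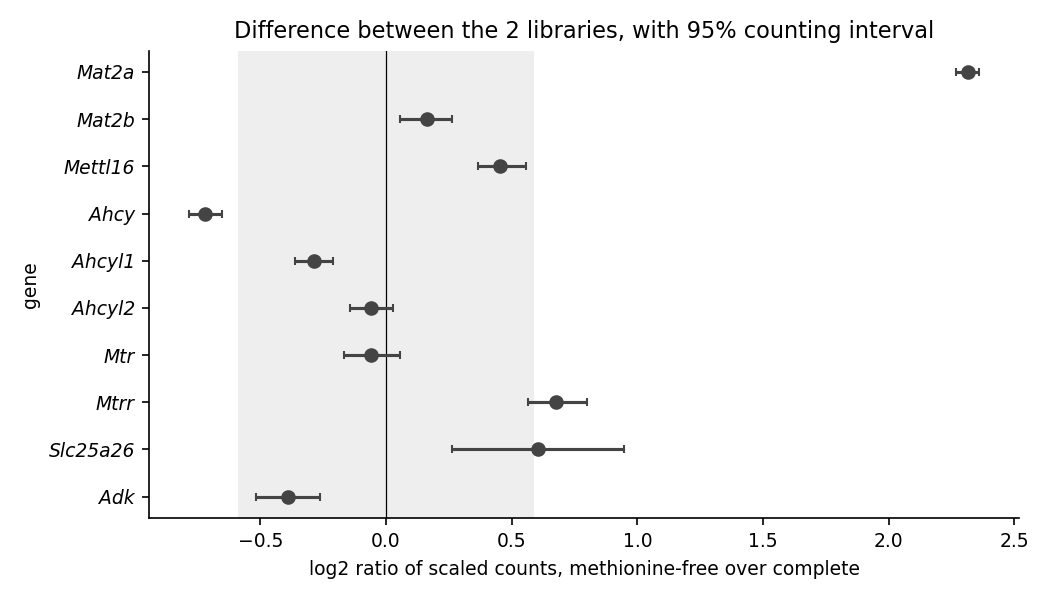
Points are log2 ratios of scaled counts, methionine-free over complete, for each member, and bars are 95% counting intervals. The grey band marks less than 1.5-fold; Mat2a lies at 2.31, Mtrr and Slc25a26 lie just beyond the upper edge and Ahcy lies beyond the lower edge.

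Mat2a (ENSMUSG00000053907, chr6:72432799-72439558, minus strand) encodes the catalytic subunit of the SAM synthetase found outside the adult liver. It had 30360 counts in the methionine-free library, or 1549.4 CPM, and 4576 counts in the complete library, or 312 CPM. The ratio was 4.97 (4.82 to 5.13), a log2 difference of 2.31. That difference was the 86th highest of 13041 genes and the fifth highest of the 3987 genes that averaged 1000 counts or more. Per length of exon, as RPKM, Mat2a stood at rank 123 of 54409 genes in the methionine-free library and at rank 709 in the complete library, and its gain of 276 RPKM was the 17th largest. Mat2a made up 62.1% of the counts of the 10 members in the methionine-free library (exact binomial interval 61.6 to 62.5) and 23.2% in the complete library (22.6 to 23.8). The summed level of the 10 members was 2495.9 CPM in the methionine-free library and 1341.4 CPM in the complete library, while the other 9 without Mat2a summed to 947 and 1029.9 CPM. The higher total without methionine was therefore made up by this gene.

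**Figure D3:**
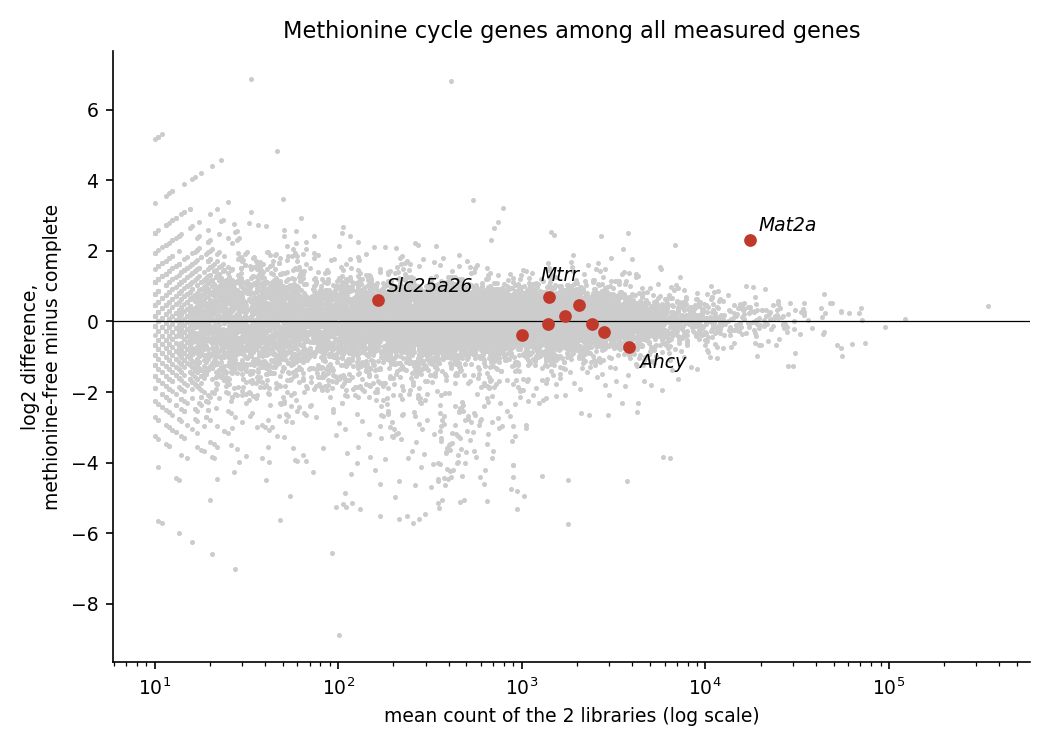
Each grey point is 1 of the measured genes, by its mean count over both libraries (log axis) and its log2 difference, methionine-free minus complete; red points are the 10 members. Mat2a lies at 2.31, the fifth highest of the 3987 genes that averaged 1000 counts or more, and the other members lie inside the cloud between -0.72 and 0.68.

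Counts given to other genes at or like Mat2a were few. The processed pseudogene Gm9523 (chr5:22693561-22694719, minus strand), which matches 88.9% of the Mat2a coding and 5′ region at 95.6% identity, had 59 counts in the methionine-free library and 6 in the complete library, a ratio of 7.37 (3.19 to 20.9). Reads of a gene and of such a copy can be swapped in counting, so the row of Gm9523 is uncertain. With its counts added, the Mat2a log2 difference stayed at 2.31. The antisense gene Particl (chr6:72439051-72440610, plus strand) shares 508 bases with the start of Mat2a and spans its promoter. It had 36 counts in the methionine-free library and 14 in the complete library, a ratio of 1.93 (1.01 to 3.87). The sources used here do not say whether counting used strand, so reads of Particl and Mat2a cannot be told apart where they overlap. All counts of Particl are under 1% of those of Mat2a in either library. Reads from the overlap that were given to Mat2a or dropped would not show in the Particl counts.

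The promoter is shown because Particl runs across it. The 250 bases before the RefSeq start of Mat2a (GRCm38.p6, chr6:72439557-72439806, minus strand) are 67.6% G or C. Capitals mark a TATAAA, which starts 32 bases before the gene's start, and an ATTGG, the reverse of the CCAAT box.
Mat2a promoter: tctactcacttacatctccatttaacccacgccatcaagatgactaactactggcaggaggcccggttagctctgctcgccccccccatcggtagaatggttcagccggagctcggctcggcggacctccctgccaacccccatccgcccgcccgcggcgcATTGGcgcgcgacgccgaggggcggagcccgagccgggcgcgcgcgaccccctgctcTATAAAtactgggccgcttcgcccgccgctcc

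RefSeq promoters were matched for 9 of the 10 members, in 15 windows. On either strand of the 250 bases, TATAAA was present in 12.4% of all 32851 promoters and in those of Mat2a, Ahcyl1 and Ahcyl2. CCAAT was present in 33.8% of all promoters and in those of 7 members, namely Mat2a, Mat2b, Mettl16, Ahcy, Mtr, Mtrr and Adk. A member was counted if any of its windows held the motif, while the shares are per window, so count and share are not like for like. The E-box CACGTG, found in 6.02% of all promoters, and the amino acid response element TGATGNAAN, found in 3.44%, were in none of the 15 windows.

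Mat2b (ENSMUSG00000042032, chr11:40679314-40695203, minus strand) encodes the regulatory subunit that binds the MAT2A protein. It had 2069 counts in the methionine-free library and 1388 in the complete library, or 106 and 94.5 CPM, a ratio of 1.12 (1.04 to 1.20). The ratio of Mat2a to Mat2b, each per length, was 16.4 (15.6 to 17.1) in the methionine-free library and 3.68 (3.46 to 3.90) in the complete library, and this within-library ratio, which needs no scaling, was 4.45 times as large without methionine (4.13 to 4.80). With the longest transcript as length it was 10.7 in the methionine-free library and 2.40 in the complete library. Mat1a, the SAM synthetase gene of the adult liver, had 0 counts in both libraries, which is under a floor of 3 counts, 0.153 CPM in the methionine-free library and 0.204 CPM in the complete library.

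Mettl16 (ENSMUSG00000010554, chr11:74770830-74828525, plus strand), the gene of the methyltransferase that senses SAM through MAT2A RNA in human cells, had 2650 counts in the methionine-free library and 1445 in the complete library. Its levels were 135 and 98.4 CPM, a ratio of 1.37 (1.29 to 1.47), which is short of 1.5-fold. Of 7 genes for RNA-binding proteins reported to act on MAT2A RNA, 1 reached 1.5-fold upward and 0 downward, against 15.7% and 18.0% of all genes (median log2 difference 0.13). That gene was Ythdc1, which encodes the nuclear reader of N6-methyladenosine (m6A), at 203 CPM in the methionine-free library and 125 CPM in the complete library, 1.62-fold (1.53 to 1.71). Cpsf6 and Nudt21, which encode cleavage factor Im subunits of 3′ end processing, had 225 and 109 CPM in the methionine-free library and 228 and 116 CPM in the complete library. None of 12 genes of the other m6A methyltransferases and their partners reached 1.5-fold in either direction, where 15.7% of all genes were past it upward and 18.0% downward (median 0.23). Mettl14 and Mettl3, the paired subunits of the main m6A writer, were 1.44-fold (1.31 to 1.60) and 1.23-fold (1.11 to 1.36) higher.

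The hydrolase family fell into an order in which Ahcy had the lowest ratio and Ahcyl2 a ratio close to 1. Ahcy (ENSMUSG00000027597, chr2:155059310-155074497, minus strand) encodes the enzyme that removes S-adenosylhomocysteine. It had 3459 counts in the methionine-free library and 4265 in the complete library, or 177 and 290 CPM, 1.65-fold lower (1.57 to 1.72). Ahcyl1 and Ahcyl2 encode relatives of this enzyme with an added N-terminal part, and AHCYL1, also called IRBIT, is known for binding the IP3 receptor. Ahcyl1 (ENSMUSG00000027893, chr3:107663118-107696560, minus strand) had 2932 counts in the methionine-free library and 2681 in the complete library, or 150 and 183 CPM, 1.22-fold lower (1.16 to 1.29). Ahcyl2 (ENSMUSG00000029772, chr6:29768011-29912310, plus strand) had 2715 and 2123 counts, or 139 CPM in the methionine-free library and 145 CPM in the complete library, a ratio of 0.959 whose interval held 1 (0.905 to 1.02). The ratio of Ahcy to Ahcyl1 per length was 2.81 (2.68 to 2.96) in the methionine-free library and 3.79 (3.62 to 3.98) in the complete library. That of Ahcy to Ahcyl2 was 8.29 (7.89 to 8.72) in the methionine-free library and 13.1 (12.4 to 13.8) in the complete library. With the longest transcript as length the ratios were lower, at 1.79 and 2.42 for Ahcy to Ahcyl1 and 2.58 and 4.07 for Ahcy to Ahcyl2, methionine-free first in each pair.

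Ahcy has 4 near copies among the annotated transcripts of other genes. The retrogene Gm4737 (chr16:46152985-46155077, minus strand), which matches 97.1% of the Ahcy coding and 5′ region at 99.7% identity, had 638 counts in the methionine-free library and 836 in the complete library, 1.75-fold lower (1.58 to 1.94). The processed pseudogene Gm9826 on chromosome 1, at 99.2% identity, had 85 and 86 counts, 1.35-fold lower (0.988 to 1.84). The processed pseudogenes Gm5638 and Gm4913 on chromosome X had 0 counts in both libraries. Counting can swap reads between such copies and Ahcy, so the levels of both are uncertain. With all copies added the log2 difference of Ahcy was -0.73, against -0.72 without them. The 10 listed genes of dividing cells were lower as well, and their part in the Ahcy difference was not tested.

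The remethylation pair parted. Mtr (ENSMUSG00000021311, chr13:12182712-12258113, minus strand), which encodes methionine synthase, had 1564 counts in the methionine-free library and 1221 in the complete library, or 79.8 and 83.1 CPM, a ratio of 0.960 whose interval held 1 (0.890 to 1.04). Mtrr (ENSMUSG00000034617, chr13:68560780-68582149, minus strand) encodes the reductase that returns the oxidised cobalamin of methionine synthase to its active form. It had 1924 and 899 counts, or 98.2 CPM in the methionine-free library and 61.2 CPM in the complete library, 1.60-fold higher (1.48 to 1.74). The ratio of Mtr to Mtrr per length was 0.496 (0.464 to 0.530) in the methionine-free library and 0.828 (0.760 to 0.903) in the complete library. A shift of this size was thus larger than counting error, with no measure of the spread between cultures.

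Genes of cobalamin and folate handling, not all of which supply this reaction, went in different directions. Of 11 genes of cobalamin handling, 3 reached 1.5-fold upward and 2 downward, against 15.7% and 18.0% of all genes (median 0.14). Mmachc, which encodes the protein that strips and hands on incoming cobalamin, was 1.67-fold higher (1.48 to 1.90), at 41.2 CPM in the methionine-free library and 24.6 CPM in the complete library. Mmab, which serves the mitochondrial form of the cofactor, was 1.80-fold lower (1.58 to 2.05). The others past the limit, Lmbrd1 and Mmaa among the higher and Tcn2 among the lower, include Tcn2 with 13 and 16 counts, where a difference was not detectable. Of 14 folate genes, 6 reached 1.5-fold downward and 1 upward, against 18.0% and 15.7% of all genes (median -0.29). The higher one was the folate carrier gene Slc46a1, on 24 and 6 counts. Among the lower ones were Tyms, which encodes thymidylate synthase, at 5.29-fold (4.60 to 6.10), and Mthfd1, Aldh1l2, Shmt1 and Mthfd1l, between 1.78-fold and 1.94-fold. Tyms had 12.8 CPM in the methionine-free library and 67.7 CPM in the complete library. Its enzyme serves DNA synthesis, and the genes of dividing cells were lower too, whose part was not tested. Of 4 listed genes of liver isozymes and the betaine route, 1 was measured. That was Gnmt, of glycine methylation, with 21 counts in the methionine-free library and 10 in the complete library, a ratio of 1.57 whose interval held 1 (0.709 to 3.74). Bhmt, of betaine remethylation, had 0 and 4 counts.

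Slc25a26 (ENSMUSG00000045100, chr6:94500331-94604672, plus strand) encodes the carrier that brings SAM into mitochondria. It had 221 counts in the methionine-free library and 109 in the complete library, or 11.3 and 7.42 CPM, 1.52-fold higher. With so few counts its interval reached from 1.20 to 1.93, so 1.5-fold lies within counting error. Its last 144 bases overlap those of Lrig1 on the opposite strand, which had 650 and 427 counts, 1.14-fold higher (1.01 to 1.29). Of 18 genes for mitochondrial enzymes that use SAM, 6 reached 1.5-fold upward and 0 downward, against 15.7% and 18.0% of all genes (median 0.31). Mrm3, a methyltransferase of mitochondrial ribosomal RNA, was 2.39-fold higher (2.03 to 2.81), with 32.4 CPM in the methionine-free library and 13.5 CPM in the complete library. Etfbkmt, which methylates the electron transfer flavoprotein, was 2.02-fold higher (1.68 to 2.42), and Nsun4, another ribosomal RNA methyltransferase, 1.88-fold (1.63 to 2.17). Tfb2m, Trmt10c and Trmt61b were between 1.56-fold and 1.79-fold higher, and Lias, which encodes lipoyl synthase, was 1.27-fold higher (1.13 to 1.43). Some genes of the list were lower without reaching 1.5-fold, the lowest being Mettl15 with a ratio of 0.755 (0.597 to 0.955).

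Adk (ENSMUSG00000039197, chr14:21052574-21448569, plus strand) encodes adenosine kinase, which turns the adenosine from S-adenosylhomocysteine back into AMP. It had 1012 counts in the methionine-free library and 994 in the complete library, or 51.6 and 67.7 CPM, 1.31-fold lower (1.20 to 1.43). Of 11 genes for other exits of adenosine and homocysteine, adenosine carriers and adenosine receptors, 4 reached 1.5-fold downward and 1 upward, against 18.0% and 15.7% of all genes (median -0.50). Ada, the adenosine deaminase gene, was 3.03-fold lower (2.43 to 3.80), at 5.97 CPM in the methionine-free library and 18.1 CPM in the complete library. Cth and Cbs, of the route from homocysteine to cysteine, had 506 and 3 counts in the methionine-free library and 1469 and 22 in the complete library. After scaling, Cth was 3.87-fold lower (3.50 to 4.29) and Cbs 9.78-fold lower (2.94 to 51.1). The adenosine receptor genes parted, with Adora2a 1.55-fold higher (1.38 to 1.73) and Adora2b, with 27 and 45 counts, 2.22-fold lower (1.35 to 3.73).

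Per length of exon the members spanned a wide range. In the methionine-free library Mat2a was highest at 345 RPKM (342 to 349), then Ahcy at 62.9 (60.9 to 65.1), and Ahcyl1 at 22.4 and Mat2b at 21.1, whose counting intervals overlap. Mtrr followed at 18.9 RPKM, then Mettl16 at 9.79 and Mtr at 9.36, which also overlap, Ahcyl2 at 7.59, Adk at 6.06 and Slc25a26 at 2.35. In the complete library Ahcy was highest at 104 RPKM (100 to 107), then Mat2a at 69.5 (67.5 to 71.5), Ahcyl1 at 27.3, Mat2b at 18.9, Mtrr at 11.8 and Mtr at 9.75. Adk at 7.94 came next, with an interval that overlaps those of Ahcyl2 at 7.92 and Mettl16 at 7.12, and Slc25a26 was lowest at 1.54. Ahcy and Mat2a thus exchanged the first place. The authors' gene models are not given, and the order of the members under Ahcy and Mat2a depends on the length used. With the longest transcript as length, Ahcyl2 stood at 26.9 and Mtrr at 25.4 RPKM in the methionine-free library, and at 28.0 and 15.9 RPKM in the complete library.

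**Figure D4:**
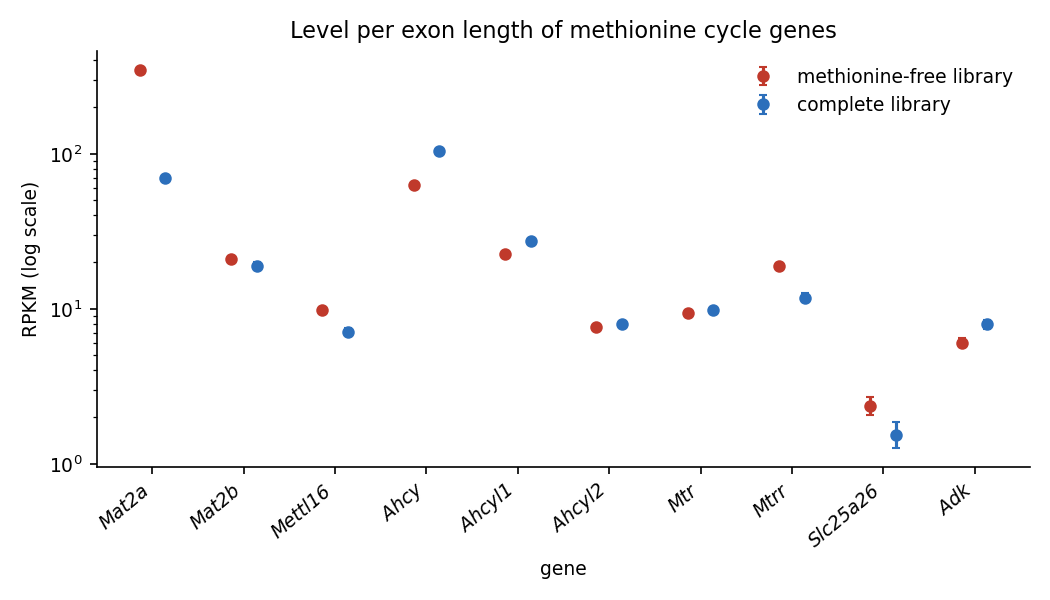
Level per exon length of each member in RPKM on a log axis, methionine-free library in red and complete library in blue, with 95% Poisson counting intervals. Mat2a is at 345 RPKM in the methionine-free library and 69.5 in the complete library, and Ahcy at 62.9 and 104.

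Uptake of methionine runs through shared amino acid carriers. Of 9 measured genes for carriers and for the SAM sensor of mTORC1, 1 reached 1.5-fold downward and 0 upward, against 18.0% and 15.7% of all genes (median 0.09). Slc7a5, the light chain of the main methionine carrier of T cells, had 1052.7 CPM in the methionine-free library and 1067.2 CPM in the complete library, a ratio of 0.986 (0.966 to 1.01). Slc43a1, a facilitated carrier, was 3.46-fold lower (2.42 to 5.01) on 44 and 114 counts, and its relative Slc43a2 was 1.37-fold lower (1.21 to 1.56). Slc1a5, the glutamine carrier, was 1.34-fold lower (1.31 to 1.38). Other carrier genes were higher by less than 1.5-fold. Slc3a2, the heavy chain that pairs with Slc7a5, had 614 CPM in the methionine-free library and 498 CPM in the complete library, a ratio of 1.23 (1.20 to 1.27), and Slc38a2, Slc7a6 and Slc38a1 had ratios of 1.30, 1.28 and 1.20, all with intervals above 1. The sensor gene Bmt2, whose protein is called SAMTOR, had 685 counts in the methionine-free library and 484 in the complete library, a ratio of 1.06 whose interval held 1 (0.943 to 1.19).

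**Figure D5:**
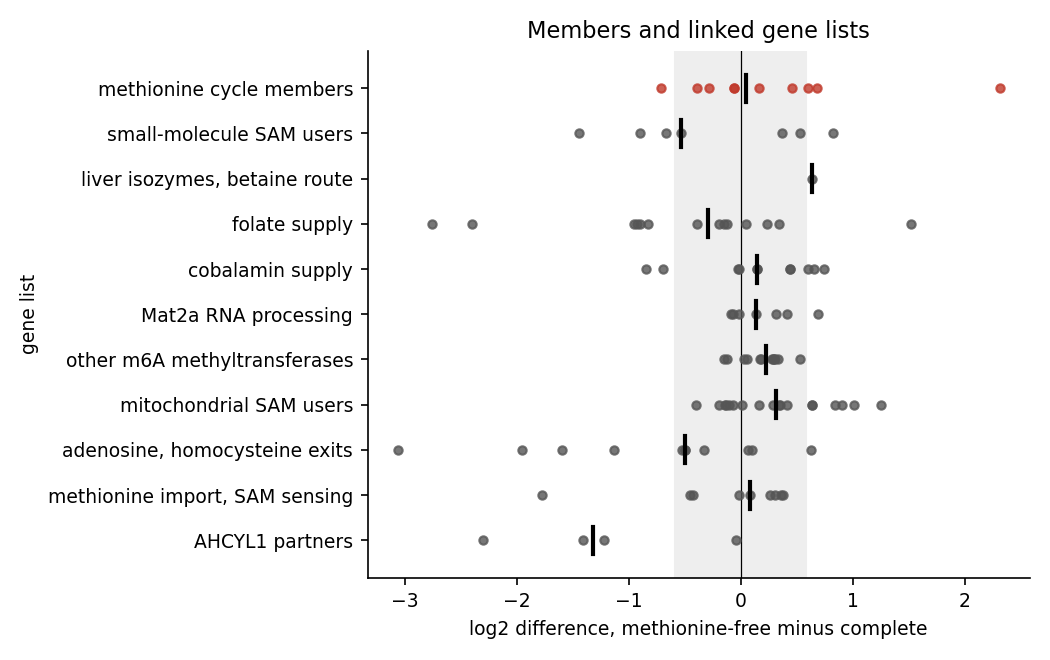
Each point is the log2 difference, methionine-free minus complete, of 1 measured gene, with the 10 members on top and 10 linked gene lists under them; black ticks are medians and the grey band marks less than 1.5-fold. The member median is 0.05, the highest median among lists with more than 1 measured gene is 0.31, of mitochondrial SAM users, and the lowest is -1.32, of AHCYL1 partners.

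Among the 3987 genes that averaged 1000 counts or more, the 5 whose log2 difference over the 2 libraries was nearest to the 2.31 of Mat2a were Atf5 at 2.42, Cd83 at 2.44, Fam129a at 2.18, Lad1 at 2.50 and Ddit3 at 2.53. Their levels in the methionine-free library were between 131 and 601 CPM, against between 22.6 and 133 CPM in the complete library. The 5 nearest to Ahcy, namely Tuba4a, Iigp1, Ncaph2, Psmd3 and Csnk1g2, were all at -0.72, and Ahcy itself had the 252nd lowest difference of that pool.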

How the data were processed

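Gene expression was measured by RNA-seq in 2 libraries, 1 per medium, so p-values and replicate errors do not exist. The authors deposited raw counts per Ensembl gene as whole numbers; the submitters' processing notes name the build mm10, while aligner, counter, annotation and use of strand are not given in sources used here. Libraries were made with a whole-RNA or an mRNA kit, per the labels' protocols. The misspelt control column and the methionine column were matched to the samples by their titles; the column names also carry the numbers 2 (complete) and 1 (methionine-free), whose meaning is not given, so whether they number further libraries is unknown. Of 54532 identifiers, 54495 matched GENCODE M21 (GRCm38, the same assembly as mm10), and the 37 others held 0.0091% of the methionine-free and 0.00742% of the complete counts. A single count was worth 0.0510 CPM in the methionine-free library and 0.0681 CPM in the complete library.

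Counts were scaled by TMM (edgeR 4.0.16, R 4.3.3; factors 0.997 and 1.003). Log2 differences used a prior count of 0.5, over genes that averaged 10 counts or more, and were called at 1.5-fold and 2-fold; the same table of all genes gave the background shares. Fold intervals are exact conditional binomial (scipy 1.17.1), ratio intervals log-normal Poisson and level intervals exact Poisson, all at 95% and for counting error only. RPKM used the union of annotated exons. Copies were sought among GENCODE M21 transcripts with BLAST 2.17.0 (at least 85% identity over at least 50% of the coding and 5′ region). Windows were folded with ViennaRNA 2.7.2. Promoter sequences are RefSeq's. The steps were tested on simulated libraries with counting error only, which cannot show the spread between cultures or a difference of kit. Members and lists were chosen with earlier results of these data known. Named genes are the 10 members, the 3 largest differences per list, a fixed set such as Cth and Slc7a5, and the 5 genes nearest to Mat2a and to Ahcy. Some of these are not reported here. The copies and overlapping genes, and Mthfd1, Aldh1l2, Shmt1, Mthfd1l, Lmbrd1, Mmaa, Tfb2m, Trmt10c, Trmt61b, Lias, Adora2a, Adora2b, Bmt2, Slc3a2, Slc38a2, Slc7a6, Slc38a1, Itpr1, Pcmt1, Nnmt, Hnmt, Inmt, Mki67 and Aurkb, were chosen after their values were seen. The same holds for Mettl15. Alternatives were DESeq2 1.42.0 size factors, library totals, upper-quartile scaling, a prior count of 5, other minimum counts, counts with copies and the longest transcript as length.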

Additional observations from a re-analysis of the deposited data

How the results depend on the processing

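All 10 member log2 differences and the counts of members past 1.5-fold and 2-fold kept their direction and size under every scaling, prior count and minimum count tried, and Mat2a and Ahcy did so with their copies added; the median of all genes moved from 0.04 to between 0.03 and 0.05. Among linked lists, counts past 1.5-fold moved on genes with few counts. With a prior count of 5, no betaine and liver gene was higher (0) and 1 cobalamin gene was lower. With a mean of at least 100 counts, 0 betaine and liver and 0 folate genes were higher, and 1 cobalamin, 2 adenosine and homocysteine and 0 methionine import genes were lower. Without a filter, 1 betaine and liver gene was lower and 1 methionine import gene higher. Levels per length depend on the gene model. With the longest transcript as length, levels in the methionine-free and the complete library became 457 and 92.0 RPKM for Mat2a, 42.9 and 38.4 for Mat2b, 10.7 and 7.82 for Mettl16, 69.4 and 114 for Ahcy, 38.7 and 47.3 for Ahcyl1, 26.9 and 28.0 for Ahcyl2, 25.4 and 15.9 for Mtrr, 5.43 and 3.58 for Slc25a26, and 12.2 and 16.0 for Adk, which reorders the members under Ahcy and Mat2a. Mat2b then lies above Ahcyl1 in the methionine-free library. Ahcyl2 lies above Mtrr, Mettl16 and Mtr in both libraries. Adk lies above Mettl16 and Mtr in both, while Adk at 16.0 and Mtrr at 15.9 RPKM are all but level in the complete library. No counting intervals were computed for levels by the longest transcript. The ratios became 10.7 and 2.40 for Mat2a to Mat2b, 1.79 and 2.42 for Ahcy to Ahcyl1, 2.58 and 4.07 for Ahcy to Ahcyl2, and 0.378 and 0.632 for Mtr to Mtrr; the change of a ratio between media does not depend on length. No paired analysis was possible because each medium had 1 library. The smallest member count was 109, so depth limits Slc25a26 most.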

Other observations

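Of 11 listed genes for enzymes that use SAM on small molecules, lipids and protein ends, 7 were measured. Of these, 1 reached 1.5-fold upward and 3 downward, against 15.7% and 18.0% of all genes (median log2 difference -0.53). As3mt, which encodes an arsenic methyltransferase, had 394 counts in the methionine-free library and 167 in the complete library, 1.77-fold higher (1.47 to 2.13). Lcmt1, whose enzyme methylates the catalytic subunit of protein phosphatase 2A, was 1.87-fold lower (1.60 to 2.20), with 13.7 CPM in the methionine-free library and 25.6 CPM in the complete library. Pcmt1, of protein repair by isoaspartate methylation, was 1.59-fold lower (1.46 to 1.72). Nnmt, Hnmt and Inmt had 0 counts in both libraries.

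Of 6 genes for proteins that AHCYL1 is known to bind, 4 were measured and 3 of these reached 2-fold downward, against 9.29% of all genes (median -1.32). The IP3 receptor genes Itpr3 and Itpr2 had 48.9 and 35.5 CPM in the methionine-free library and 131 and 83.1 CPM in the complete library. The other IP3 receptor gene, Itpr1, had 72.1 CPM in the methionine-free library and 74.2 CPM in the complete library, a ratio of 0.972 whose interval held 1. Rrm1, which encodes the large subunit of ribonucleotide reductase, was 4.94-fold lower (4.69 to 5.20). Rrm1 is used in DNA synthesis, the genes of dividing cells were lower too, and their part was not tested.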
